A study of Mus musculus with 6 samples.

Results

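These are 10 genes of the endoplasmic reticulum (ER) stress response: the transcription factor gene Xbp1, the chaperone genes Hspa5, Hsp90b1, Calr, Dnajb9 and Sdf2l1, the disulfide isomerase genes Pdia3 and Pdia4, and the degradation genes Herpud1 and Edem1. They were taken by name from a deposited table of 29955 gene names, all 10 were in it, and all 10 passed the filter on low values (an average over the libraries of 1 FPKM or more, met by 11816 genes). FPKM is a read level scaled to transcript length and to library size, so levels of different genes can be set side by side. The table holds 6 libraries of MS-1 cells, a mouse endothelial cell line made from islet capillaries with a viral oncogene. Cells were transfected with an inhibitor of miR-31, an inhibitor of miR-27 or a negative-control inhibitor (locked nucleic acids, LNA, in the titles), and each transfection was then grown for 72 h with 1 ng/ml TGF-β2 or without it. Each of the 6 conditions has 1 library. All groups are the same unsorted cell line, all received an inhibitor, and no untransfected culture is among them. Whether the 3 transfections were separate cultures is not stated, so any p-value here reflects only how these libraries vary, which may be technical variation. The series asks about miR-31 in the shift of endothelial cells toward a mesenchymal state under TGF-β. Here the TGF-β2 response of the 10 genes was compared between transfections.

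Proteins that enter the ER are folded there by chaperones and by enzymes that form disulfide bonds, and those that fail are sent back to the cytosol for degradation. When unfolded proteins build up, the sensor ATF6 is cut to release a transcription factor, the sensor IRE1 splices Xbp1 RNA so that it encodes an active factor, and the sensor PERK slows translation and raises ATF4, which induces Ddit3 (the gene of CHOP). ATF6 and XBP1 act on chaperone and degradation genes, many of them through a promoter element called the ER stress response element (ERSE).

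The promoters of 4 of the 10 genes are shown because they hold such elements as exact matches. Their differences in TGF-β2 response, miR-31 inhibitor minus negative control on the log2 scale defined below, run from 0.41 (Hsp90b1) to 2.91 (Herpud1). Not among the 4 are Pdia3 (-0.01), Edem1 (0.14), Pdia4 (0.47), Xbp1 (0.70), Dnajb9 (1.17) and Sdf2l1 (1.36), so the ranges overlap. Herpud1 holds an ERSE-II and no exact ERSE. All 10 genes matched an entry of RefSeq promoter windows on GRCm38.p6, each 300 bases long, from 250 bases before to 50 after the annotated start. Capitals mark the fixed letters of a match. The ERSE was searched as CCAAT, any 9 bases, then CCACG, and ERSE-II as ATTGG, any base, then CCACG. The XBP1 element was searched as TGACGTGG and an ATF4 element, called CARE here, as TGATGCAA, all on both strands. The 4 windows are Hspa5 on the plus strand of chr2:34771840-34772139, Hsp90b1 on the minus strand of chr10:86705395-86705694, Calr on the minus strand of chr8:84846882-84847181 and Herpud1 on the plus strand of chr8:94386179-94386478, each written 5′ to 3′ along its gene.
Hspa5: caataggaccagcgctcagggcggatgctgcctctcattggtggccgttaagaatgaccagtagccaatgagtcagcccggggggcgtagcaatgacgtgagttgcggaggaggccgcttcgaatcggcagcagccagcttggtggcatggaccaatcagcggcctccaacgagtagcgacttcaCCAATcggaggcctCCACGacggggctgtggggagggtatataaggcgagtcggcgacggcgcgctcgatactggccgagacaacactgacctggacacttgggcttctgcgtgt
Hsp90b1: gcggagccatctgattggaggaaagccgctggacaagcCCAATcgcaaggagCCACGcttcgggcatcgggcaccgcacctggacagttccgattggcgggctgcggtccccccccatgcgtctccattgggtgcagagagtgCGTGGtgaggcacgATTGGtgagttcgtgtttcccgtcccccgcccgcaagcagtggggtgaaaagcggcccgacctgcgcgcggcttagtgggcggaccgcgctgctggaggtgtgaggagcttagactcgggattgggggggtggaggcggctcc
Calr: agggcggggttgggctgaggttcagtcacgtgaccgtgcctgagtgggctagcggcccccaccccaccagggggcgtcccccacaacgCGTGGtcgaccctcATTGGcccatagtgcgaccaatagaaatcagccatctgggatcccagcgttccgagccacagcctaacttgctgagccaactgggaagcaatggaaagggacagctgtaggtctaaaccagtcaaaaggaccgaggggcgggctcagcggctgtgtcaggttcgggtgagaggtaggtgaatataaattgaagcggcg
Herpud1: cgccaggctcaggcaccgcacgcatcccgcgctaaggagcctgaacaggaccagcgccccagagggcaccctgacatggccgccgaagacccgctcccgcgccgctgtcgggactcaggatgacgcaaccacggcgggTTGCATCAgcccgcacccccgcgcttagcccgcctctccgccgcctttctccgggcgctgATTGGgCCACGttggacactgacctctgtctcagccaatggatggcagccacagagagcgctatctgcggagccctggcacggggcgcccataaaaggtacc

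Hspa5 and Calr hold 1 exact ERSE each and Hsp90b1 holds 2, while ERSE matches occur in 0.119% of the 32851 windows. Herpud1 holds an ERSE-II, found in 0.0365% of windows, and a CARE, found in 0.895%. None of the 10 windows holds the XBP1 element, which 0.676% of all windows do. At most 1 of the 10 fixed ERSE letters differs in the windows of Herpud1, Pdia3 and Pdia4 as well, as in 1.5% of all windows, exact matches included. In Dnajb9 and Sdf2l1 the nearest match differs in 2 letters, and in Xbp1 and Edem1 in 3. A match is a description of letters, and a window without one says nothing of the factor. The 10 genes were taken by name as ER stress genes, many of which the ERSE serves. The shares beside them are therefore no test of enrichment.

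The inhibited microRNAs are shown with the seed, bases 2 to 8, in capitals, because a 3′ UTR that pairs with the seed can be their target. The labels name miR27 without a letter, and miR-27a and miR-27b share 1 seed.
mmu-miR-31-5p: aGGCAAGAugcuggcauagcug
mmu-miR-27a-3p: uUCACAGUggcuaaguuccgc
mmu-miR-27b-3p: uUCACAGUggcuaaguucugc

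In GENCODE vM21, the longest annotated 3′ UTR held a match to the miR-31 seed in 2 of the 10 genes, Xbp1 and Pdia3, against 13.2% of 9546 tested genes with such a UTR. For miR-27 it was 1 of 10, Edem1, against 17.8%. Herpud1, Sdf2l1, Dnajb9 and Hspa5, which differed most between transfections, held no match to either seed. Only exact matches in 1 UTR per gene were searched, and whether a microRNA acts on any of the 10 genes directly was not tested.

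The libraries were close in depth: from the most frequent ratio between low values of the same gene in different libraries, the other 5 had 81.7% to 90.3% of the fragments of the negative-control library without TGF-β2. A total number of fragments is not in the table, so no counting interval is given. The 8 endothelial markers (Pecam1, Cdh5, Kdr, Tek, Tie1, Erg, Emcn, Eng) all passed the filter, with summed levels of 1476, 1509 and 1484 FPKM with TGF-β2 and of 1425, 1326 and 1343 FPKM without it, for the miR-31, miR-27 and negative-control inhibitors in this order. Of 6 leukocyte markers 5 stayed under 1 FPKM in every library, as did all 8 pancreas markers, 6 of 8 mural and fibroblast markers and 3 of 5 epithelial markers, Epcam being at 0 throughout. Of the epithelial exceptions, Krt19 exceeded 1 FPKM in 1 library (1.37 FPKM), and Krt18 stood at 14.8, 15.8 and 11.4 FPKM with TGF-β2 and at 53.3, 54.0 and 38.2 FPKM without it. Some markers moved with TGF-β2 in the limma fit described below: 2 endothelial ones rose (Emcn by 0.80 and Eng by 0.53, in log2) and 2 fell, among them Kdr, which stood at 36.7, 35.3 and 37.2 FPKM with TGF-β2 and at 68.8, 60.8 and 62.5 FPKM without it. The mural markers Pdgfrb and Des rose (1.22 and 0.34), as did the leukocyte marker Lyz2 (0.21), while Krt18 fell by 1.72. Pdgfrb stood at 2.70, 3.29 and 3.26 FPKM with TGF-β2 and at 0.824, 0.806 and 0.615 FPKM without it. Whether these markers have a part in the results below was not tested here.

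With the miR-31 inhibitor, the library that received TGF-β2 held the highest level of 9 of the 10 genes among all 6 libraries, as it did for 20.6% of the genes tested. Summed over the 10 genes, the level was 3760 FPKM with TGF-β2 and 1675 FPKM without it in the miR-31 inhibitor transfection, a ratio of 2.25. With and without TGF-β2 the sums in the other transfections were 2125 and 1684 FPKM with the miR-27 inhibitor (a ratio of 1.26) and 2196 and 1678 FPKM with the negative-control inhibitor (1.31). The 3 sums without TGF-β2 were close to each other, while with TGF-β2 the miR-31 inhibitor sum stood apart. The median TGF-β2 response, the difference in log2(FPKM + 1) with minus without TGF-β2, was 0.96 with the miR-31 inhibitor, 0.28 with the miR-27 inhibitor and 0.30 with the negative control, beside -0.03, -0.02 and -0.02 over all genes tested. In bulk RNA a change in the number of cells with a given level and a change in the RNA per cell cannot be told apart.

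**Figure D1:**
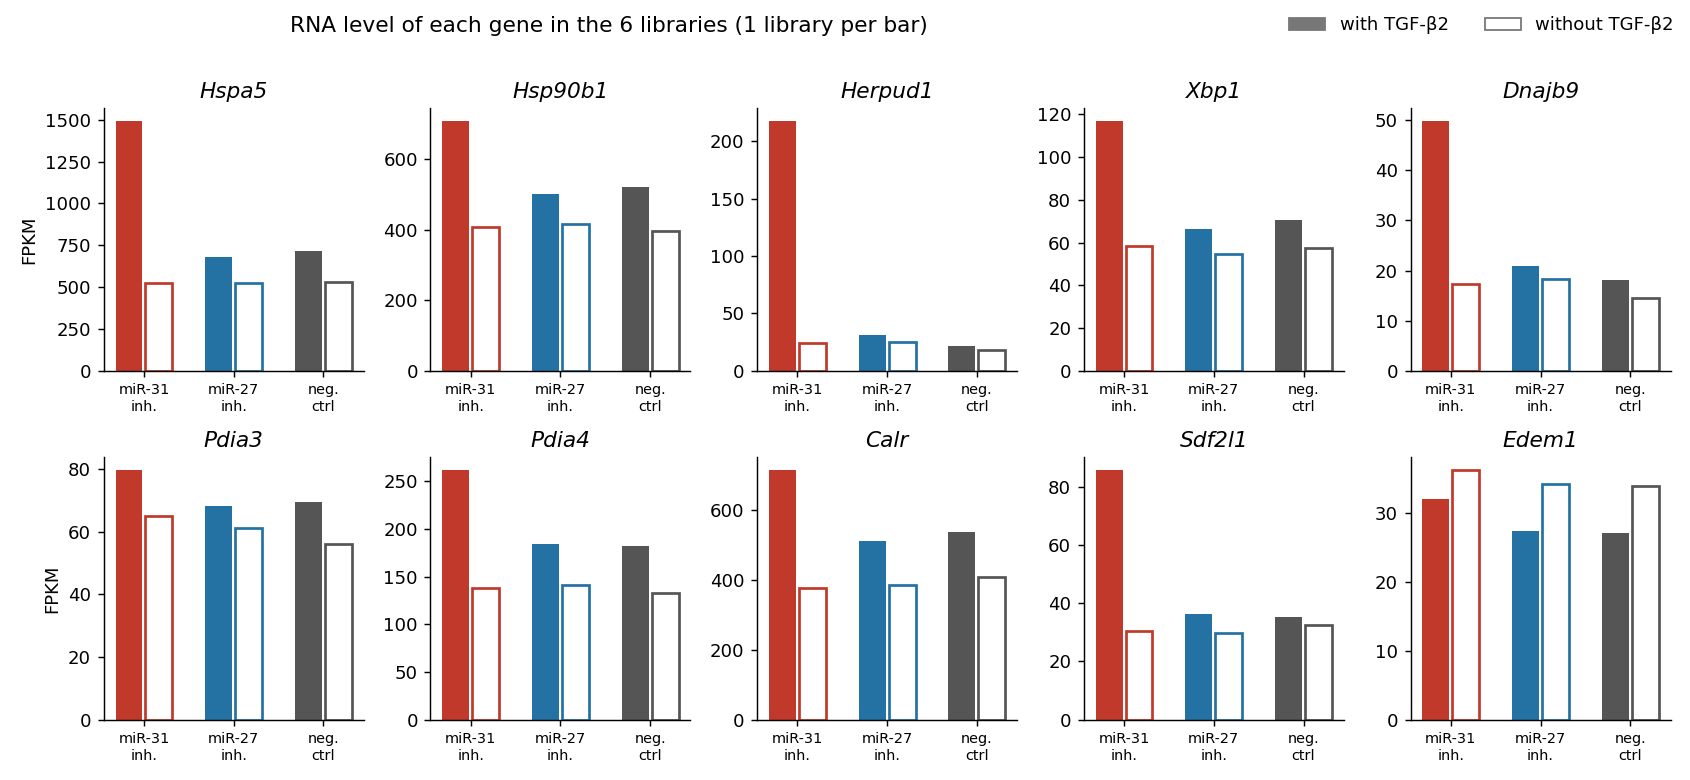
Levels of the 10 genes in FPKM on linear axes from 0. Each bar is 1 library, filled with TGF-β2 and open without it, and the groups along the horizontal axis are the miR-31 inhibitor, the miR-27 inhibitor and the negative control. The filled bar of the miR-31 inhibitor is the highest in every panel but Edem1, at 218 FPKM for Herpud1 and 1493 FPKM for Hspa5.

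Xbp1 encodes the transcription factor downstream of IRE1 (mm9 chromosome 11, 5420970 to 5425875). With TGF-β2 it stood at 117 FPKM with the miR-31 inhibitor, 66.5 with the miR-27 inhibitor and 70.6 with the negative control, and without TGF-β2 at 58.3, 54.6 and 57.3 FPKM in the same order. The miR-31 inhibitor library with TGF-β2 was above the 5 others, which lay between 54.6 and 70.6 FPKM. Its response was 0.99 with the miR-31 inhibitor, 0.28 with the miR-27 inhibitor and 0.30 with the negative control. The table has 1 value per gene, so the spliced and unspliced forms of Xbp1 RNA are not separated.

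Hspa5 encodes BiP, the ER member of the HSP70 family, which binds unfolded chains and holds the stress sensors inactive (chromosome 2, 34627610 to 34632049). It was the most abundant of the 10, at 1493, 678 and 715 FPKM with TGF-β2 and at 522, 522 and 527 FPKM without it, for the miR-31, miR-27 and negative-control inhibitors. The 3 levels without TGF-β2 differed by a factor of 1.01 at most, the closest among the 10 genes, while with TGF-β2 the miR-31 inhibitor library held 2.09 times the level of the negative control. The responses were 1.52, 0.38 and 0.44. Its promoter above carries the ERSE that begins 65 bases before the start.

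Hsp90b1 encodes GRP94, the HSP90 of the ER (chromosome 10, 86148272 to 86168189). Its levels were 708, 501 and 521 FPKM with TGF-β2 and 406, 415 and 396 FPKM without it, in the same order of inhibitors. All 3 libraries with TGF-β2 lay above all 3 without it, and the miR-31 inhibitor library lay highest, at 1.36 times the negative control. An unnamed transcript model, 1810014B01Rik, is listed at the same place with at most 8.43 FPKM. Calr encodes calreticulin, a lectin chaperone that also stores calcium (chromosome 8, 87365987 to 87370830). It stood at 715, 511 and 536 FPKM with TGF-β2 and at 378, 384 and 409 FPKM without it. These chaperone genes, with ERSE matches in the promoters, had responses with the miR-31 inhibitor of 0.80 (Hsp90b1) and 0.92 (Calr), both under the 1.52 of Hspa5.

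Dnajb9 encodes ERdj4, a J-domain partner of BiP (chromosome 12, 45306884 to 45311055), and was the least abundant of the 10. It stood at 49.9, 21.0 and 18.1 FPKM with TGF-β2 and at 17.3, 18.2 and 14.5 FPKM without it, for the miR-31, miR-27 and negative-control inhibitors. Among the 5 libraries beside the miR-31 inhibitor one with TGF-β2, the TGF-β2 states overlapped, since 18.2 FPKM without TGF-β2 exceeded 18.1 FPKM with it. Sdf2l1 encodes a component of ER chaperone complexes (chromosome 16, 17130231 to 17132476). It stood at 85.7, 36.2 and 35.1 FPKM with TGF-β2 and at 30.4, 29.8 and 32.6 FPKM without it. The responses of this pair with the miR-31 inhibitor were near that of Hspa5, at 1.47 each, against 0.19 and 0.27 with the miR-27 inhibitor and 0.30 and 0.10 with the negative control (Dnajb9 and Sdf2l1 in this order).

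Pdia4 and Pdia3 encode protein disulfide isomerases, the second of which (ERp57) works with calreticulin on glycoproteins. Pdia4 (chromosome 6, 47746140 to 47763511) stood at 262, 184 and 182 FPKM with TGF-β2 and at 138, 141 and 133 FPKM without it. Pdia3 (chromosome 2, 121239638 to 121264422) stood at 79.7, 68.3 and 69.3 FPKM with TGF-β2 and at 65.0, 61.0 and 56.0 FPKM without it. The isomerases differed from each other: the response of Pdia4 was 0.92 with the miR-31 inhibitor against 0.38 and 0.45 in the other transfections. That of Pdia3 was 0.29 with the miR-31 inhibitor, between 0.16 with the miR-27 inhibitor and 0.30 with the negative control.

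Herpud1 encodes a membrane protein of the ER degradation machinery (chromosome 8, 96910400 to 96919258), and its levels varied most. It stood at 218 FPKM with the miR-31 inhibitor and TGF-β2, against 31.2 FPKM with the miR-27 inhibitor and 21.5 FPKM with the negative control, both also with TGF-β2. Without TGF-β2 it stood at 24.1, 24.8 and 18.4 FPKM for the miR-31, miR-27 and negative-control inhibitors, so that the 5 libraries other than the highest overlapped between TGF-β2 states. The level with the miR-31 inhibitor and TGF-β2 was 10.2 times that of the negative control with TGF-β2 and 9.02 times that of the same transfection without TGF-β2. Its response of 3.12 ranked 28th highest among the 11816 genes tested with the miR-31 inhibitor, beside responses of 0.32 and 0.21 in the other transfections. Herpud1 is also the member whose promoter holds both an ERSE-II and a CARE.

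Edem1 encodes a lectin that takes misfolded glycoproteins to degradation (chromosome 6, 108778635 to 108809350), and was the member that went the other way. It stood at 32.0, 27.5 and 27.1 FPKM with TGF-β2 and at 36.3, 34.3 and 34.0 FPKM without it. All 3 libraries with TGF-β2 lay below all 3 without it, and the responses were -0.18, -0.31 and -0.32. In both TGF-β2 states the miR-31 inhibitor library was the highest of the 3, by 1.18 and 1.07 times over the negative control with and without TGF-β2.

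**Figure D2:**
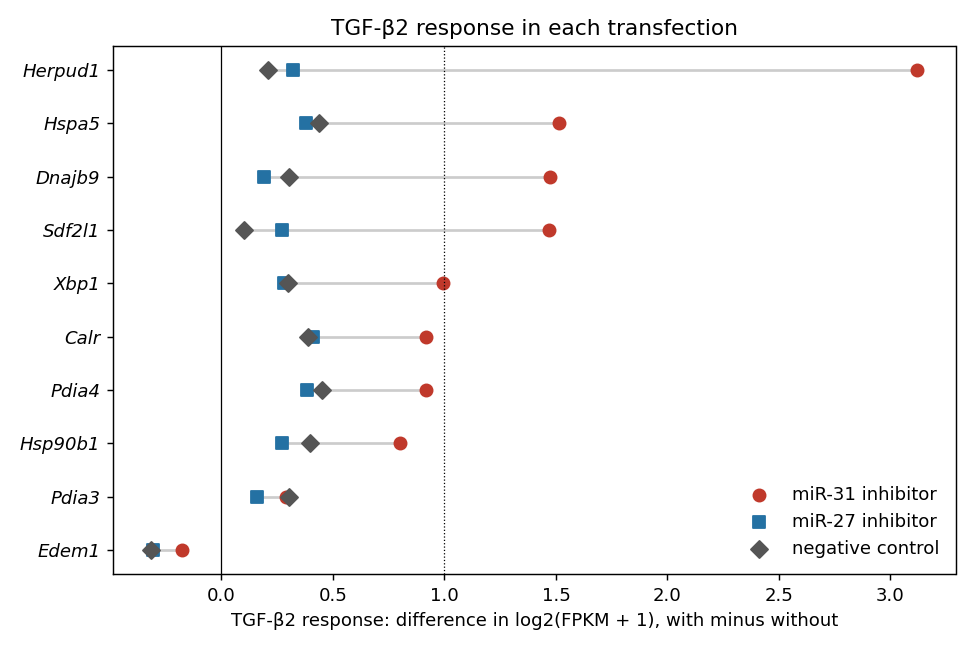
TGF-β2 response of each gene as the difference in log2(FPKM + 1), with minus without TGF-β2, from 2 libraries per point. Circles are the miR-31 inhibitor, squares the miR-27 inhibitor and diamonds the negative control, and the dotted line marks a difference of 1. Squares and diamonds lie between -0.32 and 0.45 for all 10 genes, while the circles of Herpud1, Hspa5, Dnajb9 and Sdf2l1 lie at 3.12, 1.52, 1.47 and 1.47.

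Responses of at least 1 were counted because a comparison of 2 libraries has no test. With the miR-31 inhibitor 4 of the 10 genes reached it (Herpud1, Hspa5, Dnajb9 and Sdf2l1), beside 2.65% of the genes tested. With the miR-27 inhibitor and with the negative control 0 of 10 did, beside 2.43% and 2.62%. The same 4 had a miR-31 inhibitor response at least 1 above both other responses, which only 34 genes or 0.288% of those tested had. At a limit of 0.5 it was 6 of 10, with Xbp1 and Calr, beside 1.18%. The miR-27 inhibitor response was at least 1 above both others for 0 of the 10 and for 0.127% of the genes tested. Taken as the miR-31 inhibitor response minus that of the negative control, the difference was 2.91 for Herpud1, 1.36 for Sdf2l1, 1.17 for Dnajb9, 1.08 for Hspa5 and 0.70 for Xbp1. It was 0.53 for Calr, 0.47 for Pdia4, 0.41 for Hsp90b1, 0.14 for Edem1 and -0.01 for Pdia3, so that 8 of 10 exceeded 0.31, the 95th percentile of all genes tested. These differences rest on 1 library, that with TGF-β2 in the miR-31 inhibitor transfection, and whether the responses differ between transfections was not tested.

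**Figure D3:**
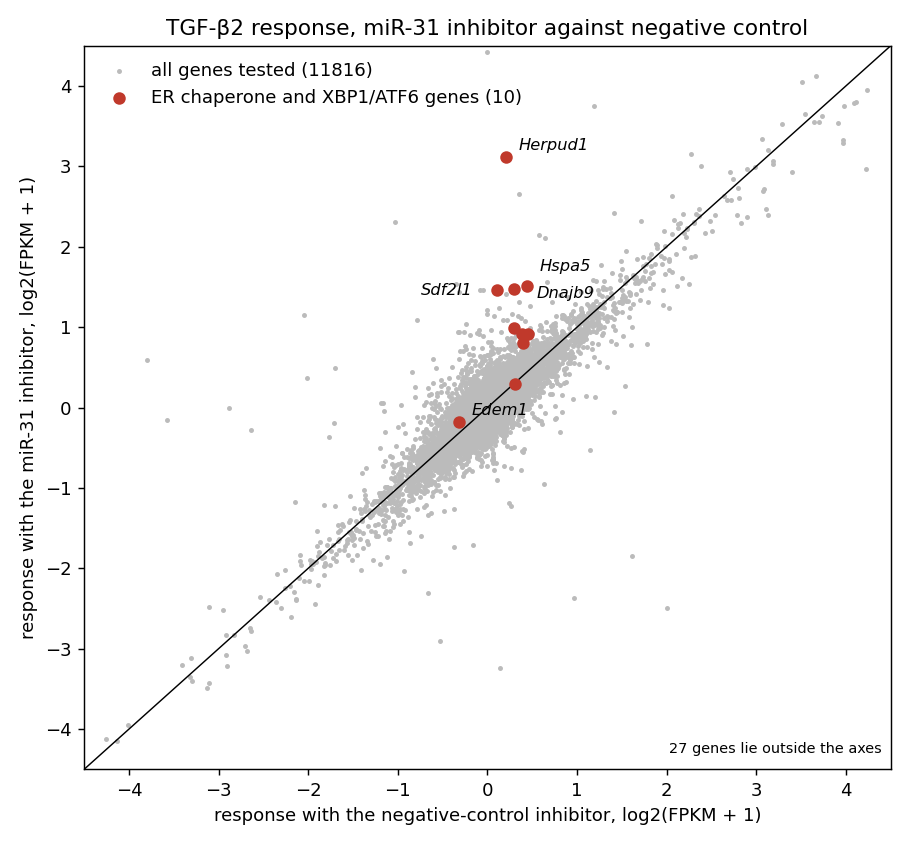
TGF-β2 response of 11816 genes with the negative-control inhibitor (horizontal) and with the miR-31 inhibitor (vertical), both in log2(FPKM + 1), with the 10 genes in red and equal responses on the line. Herpud1 lies at 0.21 and 3.12, Edem1 and Pdia3 lie close to the line, and 27 genes lie beyond the axes.

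The TGF-β2 effect averaged over the transfections was tested with limma on all genes, in a model with TGF-β2 and the inhibitor as terms. Its estimate is the mean of the 3 responses, so 1 high response raises it. Of the 10 genes, 6 rose at a Benjamini-Hochberg adjusted p under 0.05, beside 22.7% of the genes tested, and 1 fell, beside 27.5%. The 6 were Pdia4 (0.58 ± 0.11, SE of the fit, limma adjusted p = 0.0125), Calr (0.57 ± 0.12, 0.0142), Hsp90b1 (0.49 ± 0.11, 0.0189), Pdia3 (0.25 ± 0.05, 0.0118), Xbp1 (0.52 ± 0.16, 0.0432) and Hspa5 (0.78 ± 0.24, 0.0478). Edem1 fell by 0.27 ± 0.05 (limma adjusted p = 0.00968). Herpud1, Dnajb9 and Sdf2l1 had estimates of 1.22 ± 0.61, 0.66 ± 0.27 and 0.61 ± 0.28 that did not pass (limma adjusted p = 0.158, 0.0968 and 0.126). Over all 3 transfections, 9 of the 10 were higher with TGF-β2 each time, as were 33.5% of the genes tested, and Edem1 was lower each time.

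The large estimates came with large errors. When the miR-31 inhibitor library with TGF-β2 was left out, all 10 genes passed, 9 higher beside 23.7% of the genes tested and Edem1 lower beside 27.9%. Hspa5 then rose by 0.41 ± 0.05, Pdia4 by 0.42 ± 0.05, Calr by 0.40 ± 0.04, Hsp90b1 by 0.33 ± 0.05, Xbp1 by 0.29 ± 0.04, Herpud1 by 0.26 ± 0.05, Dnajb9 by 0.25 ± 0.05, Pdia3 by 0.23 ± 0.06 and Sdf2l1 by 0.19 ± 0.06 (limma adjusted p from 0.00213 for Calr to 0.0488 for Sdf2l1). Only the miR-27 inhibitor and negative-control transfections then inform the TGF-β2 estimate, with 1 residual degree of freedom before moderation. The estimate for Herpud1 is 1.22 with the library and 0.26 without it, the largest such gap among the 10. Without either negative-control library, 2 of the 10 rose (Pdia4 and Calr) and 0 fell. Without either miR-27 inhibitor library, 4 rose (Pdia4, Calr, Hsp90b1 and Pdia3) and 0 fell. Calls over all genes tested fell as well, from 2677 rising and 3249 falling with all 6 libraries. They were 1615 or 1657 rising and 1937 or 1924 falling without a negative-control library. Without a miR-27 inhibitor library they were 1807 or 1845 rising and 2094 or 2078 falling.

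Without TGF-β2 the 10 genes lay close together in the 3 transfections. The ratio of the highest to the lowest of the 3 libraries without TGF-β2 ran from 1.01 for Hspa5 to 1.35 for Herpud1, whose levels were 24.1 and 24.8 FPKM with the miR-31 and miR-27 inhibitors and 18.4 FPKM with the negative control. The miR-31 inhibitor library was the highest of these 3 for 3 of the 10, as for 33.4% of the genes tested. No gene of the 10 was at least 1 higher in log2(FPKM + 1) than the negative control with either inhibitor, beside 0.0846% of the genes tested for miR-31 and 0.118% for miR-27. With TGF-β2 all 10 were higher with the miR-31 inhibitor than in both other transfections, as were 36.5% of the genes tested. Herpud1, Dnajb9, Sdf2l1 and Hspa5 were then at least 1 higher than the negative control (3.28, 1.41, 1.26 and 1.06), beside 0.432% of the genes tested. With the miR-27 inhibitor and TGF-β2 0 of the 10 were, beside 0.11%, and Herpud1 came nearest at 0.52.

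Over both TGF-β2 states together, limma called 0 of the 10 for the miR-31 inhibitor, beside 0.0339% of the genes tested, and 0 for the miR-27 inhibitor, beside 0.00846%. At an unadjusted p under 0.05 it was 2 of 10 for miR-31 (Pdia3 and Edem1), beside 2135 of the 11816 genes tested. For miR-27 it was 0 of 10, beside 1470 of the 11816. Neither count sets the 10 genes apart from the genes tested. With trend and robust options, the calls at the adjusted threshold among the 10 were again 0 for both inhibitors. The largest estimates were 1.83 ± 0.75 for Herpud1 (limma adjusted p = 0.287) and 0.83 ± 0.32 for Dnajb9 (0.279). Without the miR-31 inhibitor library that lacked TGF-β2, the contrast rests on the single miR-31 inhibitor library with TGF-β2, which is assumed to vary like the other libraries, set against the negative control. It then called 8 of the 10 higher, all but Pdia3 and Edem1, beside 6.19% of the genes tested, with limma adjusted p from 1.26e-04 for Herpud1 to 0.0273 for Hsp90b1.

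Many genes of the wider ER machinery rose with TGF-β2 in the fit over all transfections. Of 20 other ER chaperone genes 15 rose and 0 fell at the limma threshold, with Rcn3, a calcium-binding protein of the secretory pathway, at 1.97 and the prolyl isomerase gene Fkbp14 at 1.01. Of 17 genes for disulfide isomerases and ER oxidation 10 rose and 1 fell, with Txndc5 at 1.26 and the collagen-linked isomerase gene P4hb at 0.58. Of 27 genes for translocation and ER exit 16 rose and 0 fell, with the retrieval receptor gene Kdelr3 at 1.12 and the coat gene Sec24d at 0.46. Of 14 glycosylation genes 8 rose and 0 fell, with Ostc at 0.43, and of 19 other degradation genes 3 rose and 2 fell, with Herpud2 at -0.53. Among 8 genes for sensors and their proteases 3 rose and 2 fell, with Creb3l2, a factor related to ATF6, at 1.08 and the PERK gene Eif2ak3 at 0.39. Each of these lists is to be read against the 22.7% and 27.5% of all genes tested.

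In these lists the median of the miR-31 inhibitor response minus the negative-control response was 0.05 (other chaperones), -0.02 (isomerases), 0.05 (degradation), 0.00 (glycosylation), -0.01 (translocation) and 0.03 (sensors), beside 0.61 for the 10 genes and -0.02 for all genes tested. Of their 105 tested genes 3, or 2.86%, had a miR-31 inhibitor response at least 0.5 above both others, beside 1.18% of all genes tested. The chaperone gene Creld2 stood at 120, 53.7 and 55.9 FPKM with TGF-β2 and at 50.3, 47.4 and 51.1 FPKM without it, for the miR-31, miR-27 and negative-control inhibitors. Manf, a secreted ER stress protein, stood at 113, 62.8 and 66.3 FPKM with TGF-β2 and at 50.1, 48.1 and 54.7 FPKM without it. Syvn1, the ubiquitin ligase that Herpud1 works with, stood at 11.1, 4.51 and 4.53 FPKM with TGF-β2 and at 4.47, 4.25 and 4.26 FPKM without it. In each of the 3 the miR-31 inhibitor library with TGF-β2 was above the 5 others, as in 9 of the 10 genes. The next by the difference between the miR-31 inhibitor and negative-control responses were Txndc11 (0.45), Hyou1 (0.41), Dnajc3 (0.41) and Pdia6 (0.41), while the sensor protease gene Mbtps2 was at -0.35, Erlec1 at -0.36 and Dad1 at -0.33.

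The ATF4-CHOP arm is a list of genes named for the factors ATF4 and CHOP, and PERK activity was not measured. This list had a median difference between the miR-31 inhibitor and negative-control responses of 0.95, against 0.61 for the 10 genes. Its 18 tested genes had median responses of 0.76 with the miR-31 inhibitor, -0.55 with the miR-27 inhibitor and -0.68 with the negative control, and 11 of 18 had a miR-31 inhibitor response at least 0.5 above both others, beside 1.18% of all genes tested. Ddit3, the gene of CHOP, stood at 298, 39.8 and 19.6 FPKM with TGF-β2 and at 59.2, 70.2 and 41.0 FPKM without it. The glutathione-degrading enzyme gene Chac1 stood at 109, 16.4 and 7.06 FPKM with TGF-β2 and at 48.4, 49.3 and 32.2 FPKM without it, and the pseudokinase gene Trib3 at 95.3, 21.7 and 11.1 FPKM with TGF-β2 and at 73.7, 72.7 and 47.7 FPKM without it. In the miR-27 inhibitor and negative-control transfections these genes were lower with TGF-β2, where the 10 ER genes other than Edem1 were higher. With the miR-31 inhibitor 13 of the 18 were higher with TGF-β2, as were 9 of the 10 ER genes. A response above 0 with the miR-31 inhibitor and below 0 in both other transfections was found for 0 of the 10 ER genes and 9 of the 18, beside 5.66% of all genes tested. In the limma fit 2 of the 18 rose, including Ddit4 (2.54), and 5 fell, including the asparagine synthetase gene Asns (-1.16), beside 22.7% and 27.5% of all genes tested. When the miR-31 inhibitor library with TGF-β2 was left out, 2 rose and 13 fell, beside 23.7% and 27.9%. Without TGF-β2, the median difference of this list from the negative control was 0.33 for the miR-31 inhibitor library and 0.37 for that of miR-27, while the 10 ER genes were at 0.05 and 0.04. Cytosolic heat shock genes had a median difference between the miR-31 inhibitor and negative-control responses of 0.03 over 11 tested genes, with Hspa1b (10.7, 2.90 and 2.96 FPKM with TGF-β2, and 3.05, 3.11 and 4.05 FPKM without it) as the exception at 1.89.

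**Figure D4:**
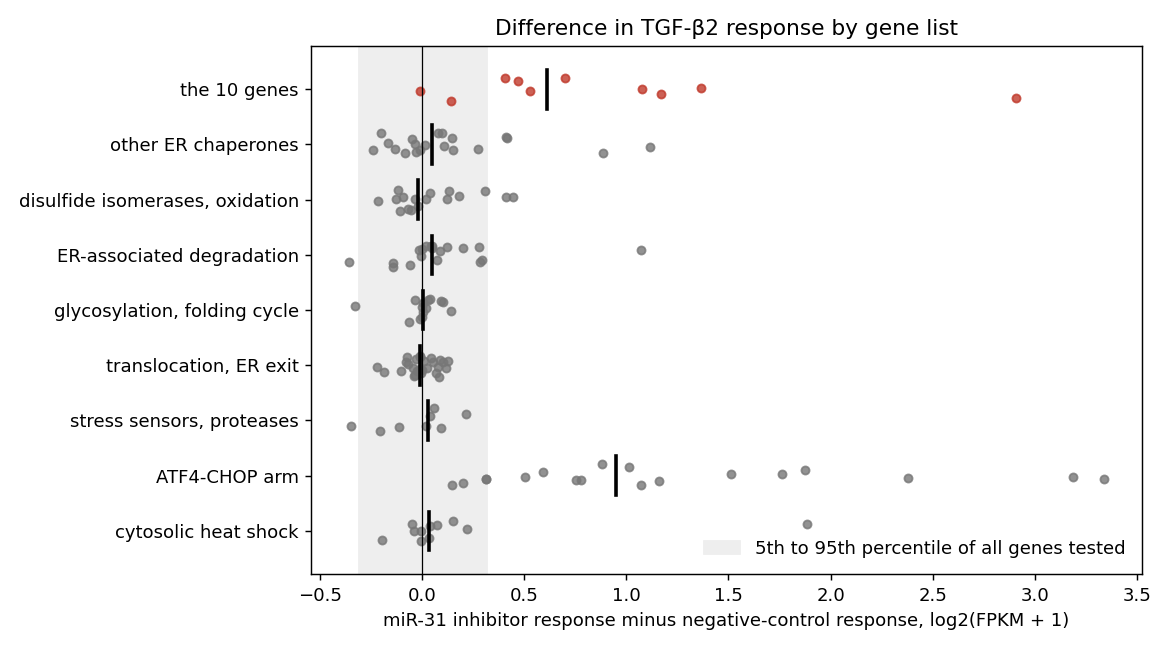
Response with the miR-31 inhibitor minus response with the negative control, in log2(FPKM + 1), for each tested gene of 9 lists, with the list median as a black bar and a random vertical offset. The grey band spans -0.31 to 0.31, the 5th to 95th percentile of all genes tested, and the bars of the 10 genes and of the ATF4-CHOP arm lie at 0.61 and 0.95.

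Across the 6 libraries, the mean centred log2 level of the 10 genes was 0.89 with the miR-31 inhibitor and TGF-β2, -0.02 and -0.06 with TGF-β2 and the miR-27 or negative-control inhibitor, and -0.24, -0.25 and -0.32 without TGF-β2. All members but Edem1 followed this profile, with Pearson correlations from 0.88 for Pdia3 to 0.99 for Hspa5, and Edem1 was at -0.19. These values describe 6 libraries of which 1 stands apart, and each gene is part of the mean. Among 2270 other genes averaging 5 FPKM or more with a range of at least 0.5, those most like the profile were Ficd (0.995), Nktr (0.994), Bid (0.993), Piga (0.992), Alg12 (0.991), Zfp617 (0.990), Zfp213 (0.989) and Zfp623 (0.985). Ficd encodes an ER enzyme that modifies BiP, and stood at 9.59, 5.83 and 5.27 FPKM with TGF-β2 and at 4.81, 4.77 and 4.39 FPKM without it. Alg12, an ER mannosyltransferase gene, stood at 12.2, 6.59 and 6.51 FPKM with TGF-β2 and at 5.23, 5.15 and 5.46 FPKM without it. Ficd and Alg12 are detailed for their ER products, and the genes most like the profile were not confined to ER genes. Nktr stood at 27.2, 19.5 and 19.0 FPKM with TGF-β2 and at 18.6, 18.5 and 17.5 FPKM without it.

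The ERSE letters were also looked for beyond the 10 genes. Of 14 tested genes with an exact ERSE in a promoter window, 6 had a miR-31 inhibitor response at least 0.5 above both others, beside the 1.18% of all 11816 genes tested. Only 7749 of those 11816 have a window by name, and the share among them was not counted. Over the 14 the median difference from the negative-control response was 0.41. Hspa5, Hsp90b1 and Calr are among the 14, and over the other 11 the count was 4 and the median 0.41. The 4 were Creld2, Syvn1, Alg12 and Zfp57, with differences of 1.11, 1.07, 0.87 and 0.53. Creld2 and Alg12 are neighbours on opposite strands of chromosome 15 and share a single ERSE (GRCm38.p6, 88819520 to 88819538), so they are not separate cases. Canx, the calnexin gene, also holds the letters and had a difference of -0.04. For ERSE-II the count at the 0.5 limit was 1 of 6 tested genes, Herpud1 itself. For CARE it was 9 of 53, and 8 of 52 without Herpud1. For the XBP1 element it was 0 of 80, beside 1.18% of all genes tested. At so low a share, 0 of 80 does not set the XBP1 element apart. Among the members without an exact ERSE or ERSE-II, Sdf2l1, Dnajb9 and Xbp1 also reached this limit.

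**Figure D5:**
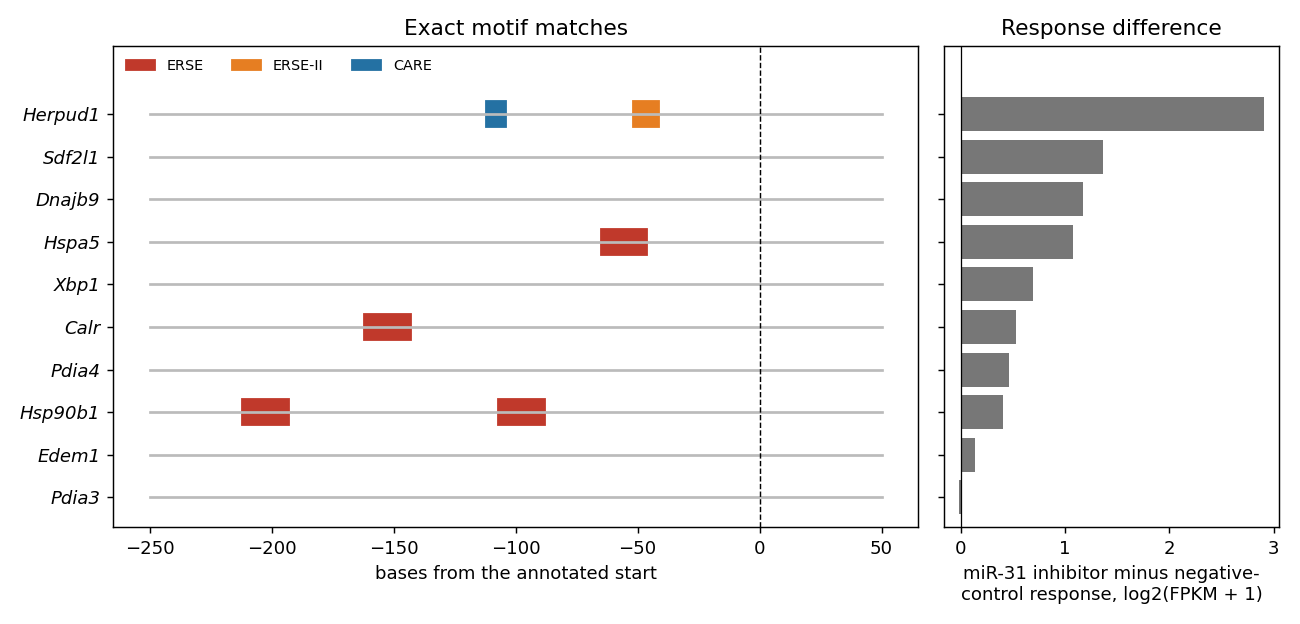
Left, exact matches to ERSE (red), ERSE-II (orange) and CARE (blue) in the promoter window of each of the 10 genes, by distance in bases from the annotated start. Right, the miR-31 inhibitor response minus the negative-control response in log2(FPKM + 1), by which the genes are ordered. Herpud1, at 2.91, holds ERSE-II and CARE, and the following pair, Sdf2l1 and Dnajb9, hold no exact match.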

How the data were processed

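The deposited table holds FPKM values for 6 libraries, 1 per condition, with 29955 gene names and no counts. Tools named in the submitters' processing notes are Cufflinks 2.1.1 and TopHat2 2.0.9, with mm9 as the build; annotation, options and filters are not given in the sources used here. Libraries were directional and made after removal of ribosomal RNA, per the labels' protocols. Places on mm9 are printed with 1 added to the listed start, since the listed spans then equal RefSeq gene lengths for 5685 genes, against 384 otherwise.

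The deposited FPKM were not rescaled. Fold changes are on the log2(FPKM + 1) scale and understate changes of low genes. The 11816 genes averaging 1 FPKM or more were fitted with limma 3.58.1 in R 4.3.3 (inhibitor and TGF-β2 as terms, 2 residual and 2.87 prior degrees of freedom, 2-sided, Benjamini-Hochberg over all genes tested, threshold 0.05). The residual spread holds noise and any dependence of the TGF-β2 response on the inhibitor together. The fit was tested on simulated data. Comparisons of 2 libraries have no test. Alternatives were another pseudocount, filters, rescaling, trend and robust options, a model without the inhibitor, and leaving out each library.

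The members and the 14 gene lists (186 symbols, 185 found) were chosen with earlier results of these data known. Named genes were all members, in each list the 3 with the largest difference between the miR-31 inhibitor and negative-control responses and the 2 with the largest TGF-β2 estimate, and the 8 most like the members' mean profile; genes with the ERSE letters and Krt19 were named after their values were seen. Promoter and microRNA sequences are from RefSeq on GRCm38.p6. Only 7749 of the tested genes have a window there by name.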

Additional observations from a re-analysis of the deposited data

Results flagged for a closer look

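Genes named in the lists were noted where the response with the miR-31 inhibitor had the opposite sign to both other responses, each from 2 libraries, so the difference was not tested. None of the 10 genes was among them. Ddit3 responded with 2.31 with the miR-31 inhibitor against -0.80 with the miR-27 inhibitor and -1.03 with the negative control, a difference of 3.34 from the negative control. For Chac1 this difference was 3.19, for Trib3 2.38 and for the heat shock gene Hspa1b 1.89. The others lay within or near the spread of all genes tested: -0.36 for Erlec1, 0.29 for Ube2g2, -0.33 for Dad1 and -0.25 for the endothelial receptor gene Tek. Of the 18 tested genes of the ATF4-CHOP arm, 9 had a response above 0 with the miR-31 inhibitor and below 0 in both other transfections, beside 5.66% of all genes tested.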

How the results depend on the processing

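No TGF-β2 estimate or response of the 10 genes changed direction under the alternatives run, nor did the estimate of any of the 27 other named genes that passed the test (25 of 320 values no longer passed). Without the miR-31 inhibitor library with TGF-β2, the estimate was -0.92 for Ddit3, -0.21 for Hspa1b and 0.01 for Sar1b, against 0.16, 0.37 and -0.06 with it, where none of the 3 passed. Of the 10 genes, 6 rose in the TGF-β2 fit. The count was 1 (Pdia3) with no filter on low values, which also adds many near-zero genes to the fit, and 4 with a pseudocount of 0.1, with trend and robust options, and with no block for the transfection (the pairing of libraries, TGF-β2 being the only term). A filter at 5 FPKM and rescaling left it at 6. Leaving out each library gave 2 to 9 rising and 0 to 1 falling. The call of Pdia4 and of Calr held in 11 of 12 alternatives, Pdia3 in 10, Hsp90b1 in 9, Edem1 in 8, and Hspa5 and Xbp1 in 4, with adjusted p up to 0.19 for Hspa5; the cause was not tested.

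In the wider ER lists 55 genes rose (31 to 58 on leaving out each library) and 5 fell (1 to 5), and among all genes 2677 rose (1615 to 2838) and 3249 fell (1924 to 3296). Of all genes 2734 rose with no filter, 2625 with a pseudocount of 0.1, 2760 with trend and robust options and 2483 with no block. For the miR-31 inhibitor, 0 of the 10 genes were called (0 to 8, the 8 without its library lacking TGF-β2), and 4 genes in all (4 to 1193), with 0 at no filter and 13 with trend and robust options. For the miR-27 inhibitor 1 gene was called in all (1 to 13), with 0 at no filter. With a limit of 0.5 in place of 1, the miR-31 inhibitor response reached it in 8 of the 10 genes in place of 4. The share of all genes tested that reached 0.5 was not counted, so this count has no background beside it. In the other transfections the 10 responses reached at most 0.41 (miR-27 inhibitor, Calr) and 0.45 (negative control, Pdia4). With a pseudocount of 0.1 or rescaling, the response of Xbp1 passed 1. No library has a repeat, so the high levels in the miR-31 inhibitor library with TGF-β2 have no replicate check, and depth sets no interval here because fragment totals are not in the table.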
